A study of Mus musculus with 22 samples.

Results

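The 10 genes described here are named for their roles in spermatogonia and in the entry into meiosis, and were followed across all 22 arrays: Gfra1, Zbtb16, Nanos3, Kit, Uchl1, Dmrt1, Sohlh1, Sohlh2, Dazl and Stra8. They were listed by name, with earlier results of these data known. Of the 10, 8 had a probe set among the 15780 named probe sets of the 16539 in the values table. Dmrt1 and Nanos3 were not analysed here, since neither their symbols nor their gene identifiers matched a row. The arrays measured RNA of male mice aged 2 months, from liver and from 3 spermatogenic populations sorted from testis by flow cytometry. Ts43H males (trisomic), which have a further copy of the centromeric segment of chromosome 17, were set against t121/D17 males (euploid). Pre-mid-pachytene spermatocytes, spermatids and liver had 3 arrays of each genotype, and mid-late-pachytene spermatocytes had 2 of each. No group received a treatment, and nothing in the labels tells whether replicate arrays are separate animals, so the p-values measure only the spread between these arrays, which may be technical.

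Spermatogonia are the mitotic germ cells at the base of the seminiferous tubule. The stem cells among them respond to the ligand GDNF of Sertoli cells through the receptors RET and GFRA1, and differentiating spermatogonia depend on the receptor KIT and its ligand. Retinoic acid then induces Stra8, which commits the cells to meiotic prophase, and pachytene spermatocytes come later in that prophase. The populations were sorted as spermatocytes and spermatids and not as spermatogonia. The values below describe what each gene's probe set read in those sorted populations, where markers of other cell types were also read.

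Levels are the deposited GCRMA values, which are log2 intensities, and a difference of 1 is a doubling of the intensity. The intensity of a probe set depends on its probes, so levels were compared within a gene and never between genes. Values below 3 are called the background range, and a gene whose every array in a cell type was below 4 is called not above background there. Differences were tested with limma in 1 fit of all arrays with Benjamini-Hochberg adjustment at 0.05. In bulk RNA, fewer cells of a type and less RNA per cell cannot be told apart.

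**Figure D1:**
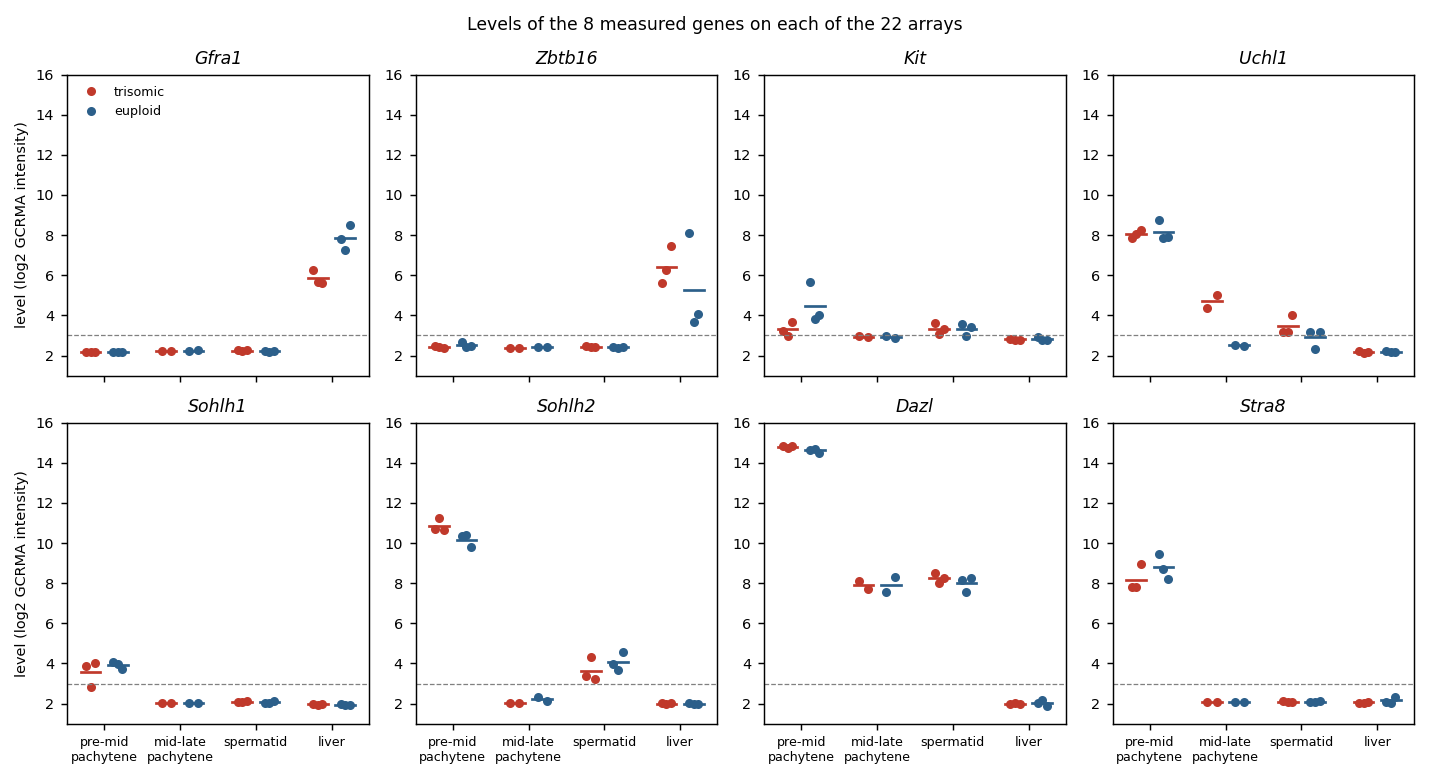
Level of each of the 8 measured genes (log2 GCRMA intensity, vertical axis) on every array, by cell type, with trisomic arrays in red to the left of euploid arrays in blue. Points are arrays, short lines are group means, and the dashed line marks the upper bound of the background range at 3. Stra8, Sohlh1, Sohlh2, Dazl and Uchl1 were highest in pre-mid-pachytene spermatocytes, while Gfra1 and Zbtb16 were above background in liver alone.

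The receptor and transcription factor of undifferentiated spermatogonia were in the background range in all 3 germ cell populations and were read in liver. Gfra1, the co-receptor through which GDNF acts on spermatogonial stem cells, had values between 2.16 and 2.26 on all 16 germ cell arrays. In liver it had 6.28, 5.67 and 5.63 on the trisomic arrays, against 7.83, 7.28 and 8.50 on the euploid arrays. The highest trisomic liver array was below the lowest euploid one, and no germ cell array came near either group.

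In liver, Gfra1 fell by 2.01 on the log2 scale in trisomic males, a 4.03-fold lower intensity, with 5.86 ± 0.36 in trisomic and 7.87 ± 0.61 in euploid liver (SD, n = 3 each). The standard error was 0.215 and the limma adjusted p was 1.1e-05. This was 1 of the 2 members tested in liver and the one call there, with 0 members higher, while 5.77% of 8180 genes were called higher in trisomic liver and 3.78% lower. The fit of all arrays drew its spread partly from germ cell arrays at the floor. Their group SDs for Gfra1 were 0.0024 to 0.029, below those in liver. When the fit was restricted to the 6 liver arrays, the difference was the same and the adjusted p was 0.0738. Only 19 genes were called in that fit.

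Zbtb16, the zinc finger repressor known as PLZF that maintains spermatogonial stem cells, was between 2.36 and 2.69 on the germ cell arrays. Its liver values were 5.59, 6.24 and 7.46 on the trisomic arrays, against 8.10, 3.67 and 4.05 on the euploid arrays. One euploid liver array was above every trisomic array and the other euploid arrays were below them all. The difference of 1.16 ± 0.736 (standard error) did not pass the test (adjusted p = 0.404, 95% interval -0.39 to 2.71). Without the first euploid liver array it was 2.57, with an adjusted p of 7.2e-05, so the outcome of the test depends on that array. Both fits drew their spread partly from germ cell arrays at the floor, where the group SDs of Zbtb16 were 0.013 to 0.144.

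Pre-mid-pachytene spermatocytes were below liver for both genes in both genotypes. The Gfra1 difference, pre-mid-pachytene minus liver, was -3.68 in trisomic males and -5.70 in euploid males. For Zbtb16 it was -4.01 in trisomic males and -2.75 in euploid males, with limma adjusted p of 2.6e-04 in trisomic and 0.00594 in euploid males. Without the first euploid liver array the euploid Zbtb16 difference was -1.33, with an adjusted p of 0.00292. Since the germ cell values of both genes were at the floor of the arrays, the size of these differences is set by the level in liver.

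Kit, the receptor tyrosine kinase that marks differentiating spermatogonia, was low in every group. In pre-mid-pachytene spermatocytes it had 3.24, 2.98 and 3.69 on the trisomic arrays, against 5.66, 3.80 and 4.01 on the euploid arrays. The trisomic values all lay below the euploid ones, but only 2 of the euploid arrays were above 4. Elsewhere the gene stayed between 2.78 and 3.60, and it was not above background in mid-late-pachytene spermatocytes, spermatids or liver of either genotype.

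Kit was not tested between genotypes in pre-mid-pachytene spermatocytes under the filter, which asked for a mean of at least 4 over both genotypes. In the fit without that filter the difference was -1.19 ± 0.345 (standard error) and missed the threshold, with a limma adjusted p of 0.0644. The first euploid array carried much of it: without that array the difference was -0.60, with an adjusted p of 0.120. The adjusted p was 0.0163 without the second euploid array and 0.0470 without the third trisomic one. Beside this, the summed level of the Leydig cell markers was 4.96 to 5.17 on the trisomic and 5.18 to 7.22 on the euploid pre-mid-pachytene arrays. Of the 6 on the array, Cyp11a1, Star, Hsd3b1, Nr5a1 and Cyp11b1 were below 3. The remaining one, Cyp17a1, averaged 3.015 on the trisomic and 5.08 on the euploid arrays. Its difference of -2.07 did not pass the limma test (adjusted p = 0.345), and the arrays overlapped. The part of Leydig cells, some of which express Kit in the testis, was not tested.

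Between the stages, Kit fell by 1.57 on the log2 scale in euploid mid-late-pachytene spermatocytes relative to euploid pre-mid-pachytene spermatocytes (limma adjusted p = 0.0026). Without the first euploid pre-mid-pachytene array the difference was -0.98, still past the threshold with an adjusted p of 0.00125. In trisomic males the same difference was -0.36, with an adjusted p of 0.541. A call in one genotype and not in the other does not show that they differ. The test of that difference without the filter gave 1.21, with an adjusted p of 0.499.

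Uchl1, the ubiquitin hydrolase also called PGP9.5 that is used as a marker of spermatogonia, was above background in pre-mid-pachytene spermatocytes. It had 7.87, 8.04 and 8.25 on the trisomic arrays, against 8.74, 7.84 and 7.90 on the euploid arrays. The groups overlapped there, and the genotype difference of -0.11 did not pass the test (adjusted p = 0.852, 95% interval -0.69 to 0.47). In liver the gene read 2.14 to 2.24.

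In mid-late-pachytene spermatocytes Uchl1 had 4.38 and 5.02 on the trisomic arrays, against 2.54 and 2.48 on the euploid arrays. Both euploid arrays were in the background range and both trisomic arrays were above 4. In spermatids it had 3.16, 3.18 and 4.0 on the trisomic arrays, against 3.18, 2.32 and 3.19 on the euploid arrays. The spermatid groups overlapped, and 1 of the 6 arrays came to 4.0.

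The mean of Uchl1 over the 4 mid-late-pachytene arrays was below the filter, so the main test left it out. Without the filter the difference was 2.19 ± 0.342 (standard error), a 4.55-fold higher intensity in trisomic cells, with a limma adjusted p of 0.0041. Uchl1 was the 1 member called in that fit, in which 0.431% of 15780 genes were called higher. The fold depends on where the euploid arrays' floor lies. The fit drew its spread from the arrays of all cell types, partly from liver arrays at the floor. Group SDs of Uchl1 were 0.0408 in trisomic and 0.0425 in euploid liver. They were 0.454 in trisomic and 0.0449 in euploid mid-late-pachytene spermatocytes, and 0.192 to 0.505 in the remaining groups. With the mid-late-pachytene arrays alone, 0 genes were called, but that fit kept the filter and did not hold Uchl1. Without the second trisomic array the difference was 1.87 and the adjusted p was 0.0528, while leaving out any other mid-late-pachytene array gave an adjusted p of 0.00543, 0.0113 or 0.0192.

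The genotype difference of Uchl1 was larger in mid-late-pachytene than in pre-mid-pachytene spermatocytes by 2.30 ± 0.441 (standard error) in the fit without the filter, with an adjusted p of 0.0276. That fit called 0.545% of 15780 genes for this interaction. Its spread too came partly from liver arrays at the floor. With only the arrays of the compared spermatocyte stages, 2 genes were called for the interaction, in a fit that kept the filter and did not hold Uchl1. The genotype difference in spermatids minus that in mid-late-pachytene spermatocytes was -1.64, with an adjusted p of 0.307. Summed Sertoli markers read 9.90 to 9.91 on the trisomic and 9.61 to 10.35 on the euploid mid-late-pachytene arrays, and Amh, Fshr, Gata4, Trf, Inhba, Gdnf, Kitl and Dhh were below 3 in both. Summed round spermatid markers were 14.81 on both trisomic arrays and 14.49 to 15.66 on the euploid ones. Early meiotic prophase markers were 15.28 to 15.38 on the trisomic and 15.22 to 15.50 on the euploid arrays. The part of other cells in the Uchl1 difference was not tested.

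**Figure D2:**
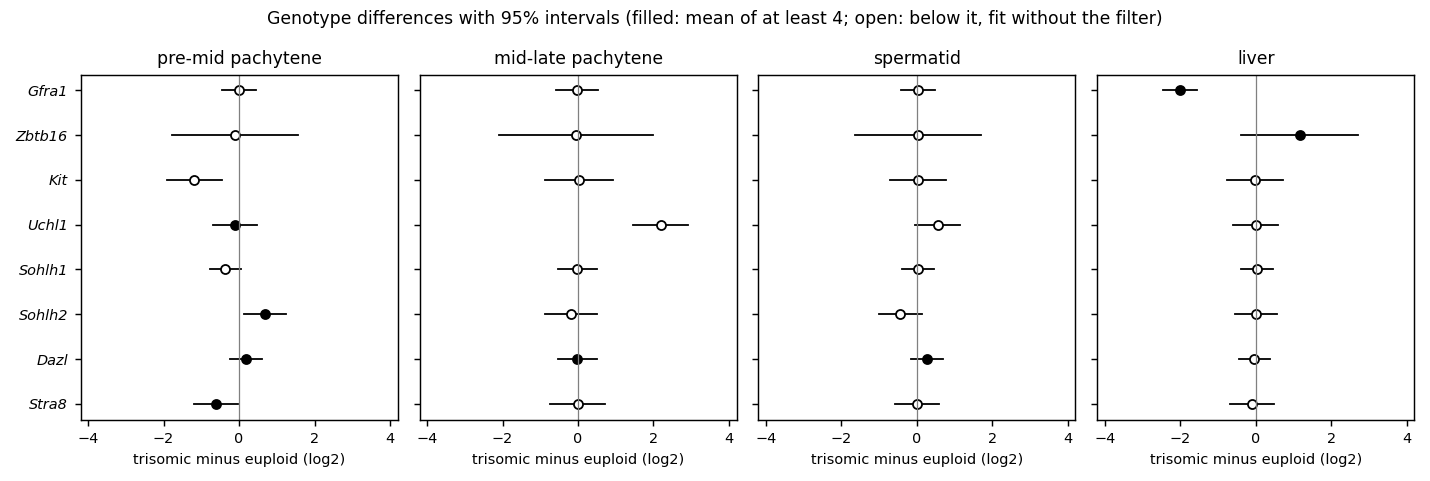
Genotype difference of each gene, trisomic minus euploid (log2, horizontal axis), in the 4 cell types, with 95% intervals that are not adjusted for the number of genes. Filled points mark genes that passed the filter at a mean of 4 and open points come from the fit without that filter. Gfra1 in liver stands at -2.01, and Uchl1 in mid-late-pachytene spermatocytes, whose euploid arrays are at the floor, at 2.19.

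Sohlh1 and Sohlh2 are basic helix-loop-helix transcription factors that drive spermatogonial differentiation and bind one another. Their promoters are shown because both genes were called lower at the same step, from pre-mid-pachytene to mid-late-pachytene spermatocytes. The sequences are those of RefSeq on GRCm38.p6, 250 bases before to 50 bases after the start, on the strand of the gene. In the Sohlh1 promoter, chr2:25847199-25847498 on the minus strand, the capitals mark the E-box CACGTG, searched on both strands. In the Sohlh2 promoter, chr3:55181794-55182093 on the plus strand, they mark CNCCTCAG, the letters known from STRA8 binding in mouse spermatocytes.
Sohlh1: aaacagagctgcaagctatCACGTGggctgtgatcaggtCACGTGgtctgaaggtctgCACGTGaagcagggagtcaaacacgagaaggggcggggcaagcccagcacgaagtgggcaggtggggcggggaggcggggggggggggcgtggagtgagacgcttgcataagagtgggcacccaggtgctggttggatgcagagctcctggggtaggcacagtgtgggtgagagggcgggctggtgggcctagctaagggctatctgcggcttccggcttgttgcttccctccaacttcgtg
Sohlh2: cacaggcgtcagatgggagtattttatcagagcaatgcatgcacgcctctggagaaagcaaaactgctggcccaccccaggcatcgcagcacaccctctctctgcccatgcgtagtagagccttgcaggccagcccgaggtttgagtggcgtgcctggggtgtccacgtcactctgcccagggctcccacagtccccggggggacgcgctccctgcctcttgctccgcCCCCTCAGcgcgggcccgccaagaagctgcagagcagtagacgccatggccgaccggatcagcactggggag

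The E-box stood 3 times in the Sohlh1 promoter, at -231, -211 and -192 from the start. Of 32851 mouse promoters of the same length, 7.15% held it and 0.0883% held it 3 times or more. The second E-box overlapped an AGGTCA, the core half-site of nuclear receptors, at -215. Sohlh2 had 0 matches to CACGTG and 1 to CNCCTCAG at -22, overlapping a GC box (GGGCGG) at -26, and 7.94% of promoters held CNCCTCAG. These matches describe letters and are not evidence of binding.

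Sohlh1 had 3.86, 2.84 and 4.01 on the trisomic pre-mid-pachytene arrays, against 4.06, 3.99 and 3.74 on the euploid arrays. The groups overlapped, and 1 trisomic array was in the background range. On the other 16 arrays the gene read 1.91 to 2.12. It was above the bound of 4 on 1 array of each genotype.

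Sohlh2 had 10.68, 11.27 and 10.63 on the trisomic pre-mid-pachytene arrays, against 10.34, 10.38 and 9.81 on the euploid arrays. The trisomic arrays were all above the euploid ones, yet the difference of 0.69 ± 0.263 (standard error) did not pass after adjustment (limma adjusted p = 0.105, 95% interval 0.13 to 1.24). In mid-late-pachytene spermatocytes the gene had 2.04 and 2.04 on the trisomic arrays, against 2.33 and 2.12 on the euploid arrays. All 4 were in the background range.

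In spermatids Sohlh2 had 3.38, 4.30 and 3.20 on the trisomic arrays, against 3.98, 3.67 and 4.57 on the euploid arrays. Every spermatid array was above every mid-late-pachytene array. The increase from mid-late-pachytene spermatocytes to spermatids was 1.59 in trisomic males and 1.84 in euploid males, with limma adjusted p of 3.9e-04 and 9.2e-05. In liver the gene read 1.97 to 2.02.

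Sohlh2 fell by 8.82 on the log2 scale in trisomic mid-late-pachytene relative to pre-mid-pachytene spermatocytes, and fell by 7.95 in euploid ones. The mid-late-pachytene values were at the array floor, which sets the size of both differences. Sohlh1 fell by 1.54 in trisomic and fell by 1.88 in euploid males at the same step, with adjusted p of 1.7e-05 and 1.7e-06.

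Dazl, an RNA-binding protein needed for germ cells to become competent for meiosis, is the 1 member on chromosome 17. Its promoter, chr17:50293571-50293870 on the minus strand of GRCm38.p6 in RefSeq, is shown because Dazl alone shares a chromosome with the extra segment, whose end the labels do not give. Stra8, the retinoic acid-induced gene at meiotic entry, has its promoter at chr6:34920698-34920997 on the plus strand, shown because the gene was read in 1 population alone. Capitals mark CNCCTCAG in Dazl and AGGTCA in Stra8.
Dazl: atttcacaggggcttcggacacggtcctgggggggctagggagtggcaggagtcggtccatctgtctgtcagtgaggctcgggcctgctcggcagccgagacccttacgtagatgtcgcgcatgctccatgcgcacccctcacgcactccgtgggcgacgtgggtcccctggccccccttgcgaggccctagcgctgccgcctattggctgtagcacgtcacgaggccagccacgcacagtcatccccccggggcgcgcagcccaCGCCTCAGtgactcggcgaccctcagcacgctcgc
Stra8: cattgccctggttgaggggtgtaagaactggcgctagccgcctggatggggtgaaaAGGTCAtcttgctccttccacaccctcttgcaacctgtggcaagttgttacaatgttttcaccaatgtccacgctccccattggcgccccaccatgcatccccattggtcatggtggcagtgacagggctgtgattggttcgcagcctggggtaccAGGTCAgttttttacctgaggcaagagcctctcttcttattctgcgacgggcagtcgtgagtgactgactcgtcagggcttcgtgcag

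Dazl held CNCCTCAG once, at 16 bases after the start. Stra8 held AGGTCA 2 times, at -194 and -38, as did 1.81% of the 32851 promoters with 2 or more, while 16.3% held at least 1. The promoters of Uchl1 and Gfra1 held none of these motifs nor the GC box, and that of Kit held the GC box alone. The GC box was in 35.7% of promoters.

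Dazl had 14.83, 14.71 and 14.84 on the trisomic pre-mid-pachytene arrays, against 14.65, 14.69 and 14.50 on the euploid arrays. In mid-late-pachytene spermatocytes it had 8.11 and 7.71 on the trisomic arrays, against 7.56 and 8.30 on the euploid arrays. In spermatids it had 8.51, 8.0 and 8.24 on the trisomic arrays, against 8.15, 7.58 and 8.25 on the euploid arrays. Every germ cell array was far above the liver arrays, which read 1.89 to 2.17.

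The genotypes of Dazl did not overlap in pre-mid-pachytene spermatocytes and overlapped in the other germ cells. The difference was 0.18 in pre-mid-pachytene spermatocytes (limma adjusted p = 0.621, 95% interval -0.24 to 0.60). The value was -0.02 in mid-late-pachytene spermatocytes (adjusted p = 0.999, 95% interval -0.53 to 0.50) and 0.26 in spermatids (adjusted p = 0.893, 95% interval -0.17 to 0.68). None passed the test. Dazl was also the 1 member tested for a change of the genotype difference between germ cell stages. That change was -0.20 from pre-mid-pachytene to mid-late-pachytene (adjusted p = 0.847) and 0.28 from there to spermatids.

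Dazl fell by 6.89 on the log2 scale in trisomic and fell by 6.69 in euploid mid-late-pachytene relative to pre-mid-pachytene spermatocytes. From mid-late-pachytene spermatocytes to spermatids the difference was 0.34 in trisomic and 0.07 in euploid males, neither past the threshold.

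Stra8 had 7.79, 7.81 and 8.95 on the trisomic pre-mid-pachytene arrays, against 9.46, 8.73 and 8.20 on the euploid arrays. On every other array it read 2.05 to 2.35. The genotypes overlapped, since the third trisomic array was above 2 of the euploid ones. The difference of -0.61 ± 0.273 (standard error) did not pass (limma adjusted p = 0.166, 95% interval -1.19 to -0.04). Without the third trisomic array it was -0.99 with an adjusted p of 0.0124, and without the first euploid array it was -0.28 with an adjusted p of 0.569.

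Stra8 fell by 6.10 on the log2 scale in trisomic and fell by 6.70 in euploid mid-late-pachytene relative to pre-mid-pachytene spermatocytes. The lower end of each is the array floor, so both are differences to background. The mid-late-pachytene and spermatid groups of Stra8 lay within 0.02 of each other.

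Among the members as a set, 4 of 8 could be tested between genotypes in pre-mid-pachytene spermatocytes: Stra8, Sohlh2, Dazl and Uchl1. With limma, 0 rose and 0 fell, while 5.88% of 8384 genes were called higher and 4.46% lower, and 2 members had an unadjusted p under the threshold of 0.05. Their median difference was 0.03, against 0.11 over all tested genes. In spermatids and in mid-late-pachytene spermatocytes Dazl was the 1 member tested, with 0 calls. There 0.569% of 8085 genes were higher and 0.396% lower in mid-late-pachytene spermatocytes, and 0.290% of 8283 higher and 0.531% lower in spermatids.

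The interaction of genotype with cell type could be tested for 0 members between pre-mid-pachytene spermatocytes and liver, where 5.21% of 6510 genes were called. For Dazl it was not called between the germ cell stages, where 0.108% of 7434 and 0.0131% of 7647 genes were. Without the filter, Gfra1 was called between pre-mid-pachytene spermatocytes and liver, at 2.02 with an adjusted p of 0.00163, among 4.59% of 15780 genes. Since Gfra1 was at the floor in germ cells of both genotypes, this value is the liver difference with its sign turned.

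**Figure D3:**
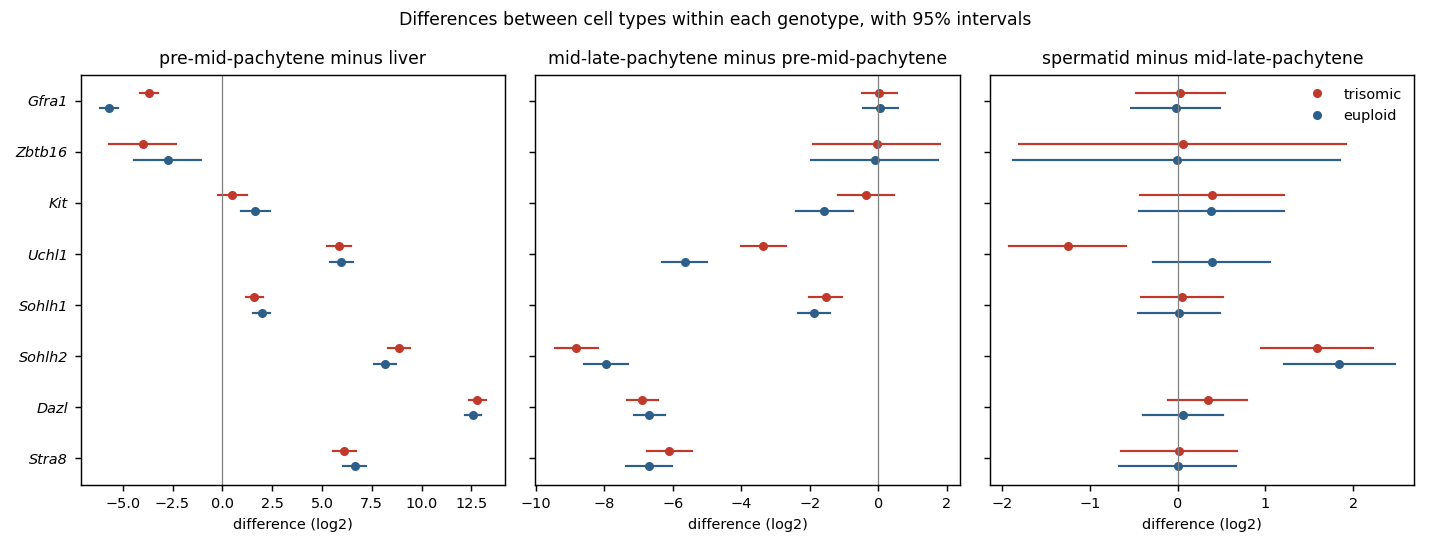
Difference between cell types for each gene (log2, horizontal axis) in trisomic (red) and euploid (blue) males, with 95% intervals not adjusted for the number of genes. From left to right the panels show pre-mid-pachytene minus liver, mid-late-pachytene minus pre-mid-pachytene and spermatid minus mid-late-pachytene, each with its own scale. Differences to a group in the background range have a size set by the array floor and are not ranked. Sohlh2 alone rose in spermatids in both genotypes.

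Across the cell types all 8 members were tested without a filter on low values. Relative to liver, 5 members rose and 2 fell in trisomic pre-mid-pachytene spermatocytes, and 6 rose and 2 fell in euploid ones. Over 15780 genes, 32.1% were higher and 26.4% lower in trisomic and 31.4% higher and 27.4% lower in euploid males. Dazl, Sohlh2, Stra8, Uchl1 and Sohlh1 rose in both genotypes, by 12.81, 8.86, 6.13, 5.87 and 1.60 in trisomic males and by 12.58, 8.17, 6.64, 5.98 and 1.98 in euploid males. Kit was higher by 0.50 in trisomic males, short of the threshold (adjusted p = 0.243), and rose by 1.66 in euploid males, or by 1.08 without the first euploid pre-mid-pachytene array (adjusted p = 1.8e-04).

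At the next step 5 members fell in trisomic and 6 in euploid mid-late-pachytene spermatocytes and 0 rose in either. Over all genes 21.6% fell and 25.4% rose in trisomic males, and 21.2% fell and 29.6% rose in euploid males. The members' median difference was -2.45 in trisomic and -3.77 in euploid males, against 0.04 and 0.06 over all genes. Uchl1 fell by 3.35 in trisomic and fell by 5.65 in euploid males. Gfra1 and Zbtb16 stayed at the floor and did not pass.

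Sertoli, spermatid and early meiotic prophase markers were lower at the same step, and pachytene spermatocyte markers were higher. Those of some other cells were not lower. Summed early prophase markers were at least 16.96 in pre-mid-pachytene and at most 15.38 in mid-late-pachytene spermatocytes of trisomic males. In euploid males these bounds were 16.74 and 15.50. Summed pachytene markers were at most 16.87 in pre-mid-pachytene and at least 18.03 in mid-late-pachytene spermatocytes of trisomic males. In euploid males they were 16.78 and 17.93. The summed macrophage markers read 5.98 to 6.05 in mid-late-pachytene against 5.45 to 5.54 in pre-mid-pachytene spermatocytes of trisomic males. In euploid males they read 5.84 to 6.24 against 5.48 to 5.73. For the Leydig, peritubular and endothelial lists the arrays of the 2 stages overlapped in both genotypes. In pre-mid-pachytene cells of both genotypes 6 of 8 macrophage, 5 of 6 Leydig, 6 of 9 peritubular and 5 of 6 endothelial markers were below 3. With most of their markers at the floor, these lists can show little of a fall. The summed Sertoli markers read 9.90 to 9.91 in mid-late-pachytene against 13.86 to 14.36 in pre-mid-pachytene spermatocytes of trisomic males, and 9.61 to 10.35 against 13.92 to 14.38 in the same stages of euploid males. In trisomic males Clu averaged 8.55 in mid-late-pachytene against 13.13 in pre-mid-pachytene spermatocytes, and in euploid males 9.01 against 13.35. The summed spermatid markers read 14.81 in mid-late-pachytene against 17.03 to 17.54 in pre-mid-pachytene spermatocytes of trisomic males, and 14.49 to 15.66 against 17.15 to 17.43 in euploid males. Among them Tnp2 averaged 5.95 in mid-late-pachytene against 14.26 in pre-mid-pachytene spermatocytes of trisomic males. The part of other cells, or of cell stage, in the members' lower levels at this step was not tested.

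From mid-late-pachytene spermatocytes to spermatids, 1 member rose and 1 fell in trisomic males, and 1 rose and 0 fell in euploid males. Over all genes 16.2% rose and 19.1% fell in trisomic males, and 16.7% rose and 19.8% fell in euploid males. Sohlh2 was the member that rose. Uchl1 fell by 1.25 in trisomic males (adjusted p = 0.0042), where without the second mid-late-pachytene array it was -0.93 with an adjusted p of 0.0894. In euploid males its difference was 0.39 (adjusted p = 0.436). Neighbouring comparisons share arrays, so a high value in one group enters 2 of them.

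The labelled cell types were checked against marker genes. All 7 hepatocyte markers on the array had a mean of at least 4 in liver and 0 did in any germ cell group. All 10 early meiotic prophase markers were above that level in pre-mid-pachytene spermatocytes, as were all 10 markers of round and elongating spermatids, with summed levels of 17.03 to 17.54 on the trisomic and 17.15 to 17.43 on the euploid arrays. In those cells 5 of 14 Sertoli markers, 0 of 8 macrophage markers and 1 of 6 endothelial markers reached a mean of 4, while Amh, Fshr and Gata4 were below 3. The Sertoli markers that read high were Clu, with means of 13.13 on the trisomic and 13.35 on the euploid arrays, Aard (trisomic 12.09, euploid 12.07), Cst12 (trisomic 11.72, euploid 11.42) and Cldn11 (trisomic 7.04, euploid 6.78). Within a group the arrays correlated over genes with r of 0.988 to 0.997.

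The other genes of the pathway were taken from 3 lists. Of 20 measured genes of spermatogonial stem cells and progenitors, 14 had means below 3 in pre-mid-pachytene spermatocytes of both genotypes, among them Ret, the partner receptor of Gfra1, and Neurog3, a progenitor transcription factor. Id4, Epcam, Taf4b, Foxo1 and Itga6 were the 5 with a mean of at least 4. Of these 5, 0 changed between genotypes in pre-mid-pachytene spermatocytes by limma, and 0 had an unadjusted p under 0.05. Over all tested genes 5.88% were higher and 4.46% lower there, so 0 of 5 is near those shares. The median difference of the 5 was -0.15, against 0.11 over all tested genes. In the other cell types 0 of the list changed, with 1 gene at that unadjusted p in spermatids, 1 in liver and 0 in mid-late-pachytene spermatocytes. Only 4 of the list were tested in spermatids, 7 in liver and 5 in mid-late-pachytene spermatocytes. Over all tested genes 0.290% were higher and 0.531% lower in spermatids. The shares were 5.77% and 3.78% in liver, and 0.569% and 0.396% in mid-late-pachytene spermatocytes.

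Relative to pre-mid-pachytene spermatocytes, 3 of the 20 fell and 2 rose in mid-late-pachytene spermatocytes of each genotype. These are smaller shares than over all genes, of which 21.6% fell and 25.4% rose in trisomic and 21.2% fell and 29.6% rose in euploid males. Taf4b, a TFIID subunit of germ cells, fell by 6.15 in trisomic and fell by 6.32 in euploid males, and Foxo1, a transcription factor of stem cell maintenance, fell by 3.74 in trisomic and fell by 3.90 in euploid males. Bcl6b, a GDNF-responsive repressor in spermatogonia, went the other way, with 5.30 in mid-late-pachytene against 2.26 in pre-mid-pachytene spermatocytes of trisomic males and 5.36 against 2.20 in euploid males. Id4, an inhibitor of helix-loop-helix factors that marks stem cells, fell by 3.45 in trisomic and fell by 3.11 in euploid spermatids relative to mid-late-pachytene spermatocytes.

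Of 17 measured genes of differentiating spermatogonia and meiotic entry, 15 were tested between genotypes in pre-mid-pachytene spermatocytes, of which 2 rose and 1 fell, against 5.88% of all tested genes higher and 4.46% lower, and with a median difference of 0.16 against 0.11. Rec8, the meiotic cohesin subunit, fell by 2.12 on the log2 scale, with 5.64 to 6.44 on the trisomic and 7.68 to 8.40 on the euploid arrays (limma adjusted p = 8.5e-04). Dmrtc2, a meiotic DM domain protein, rose by 1.03 (adjusted p = 0.0212), and Stk31, a germ cell kinase-like protein, rose by 0.60 (adjusted p = 0.0367). For none of the 3 did trisomic and euploid arrays overlap. None of these calls remained when the fit held the pre-mid-pachytene arrays alone, and 4 of the 8384 genes were called there. Dmrtc2 and Stk31 also lost theirs without either the third euploid or the first or second trisomic array, and Stk31 without the first euploid array and with quantile normalization.

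Some stage markers of the same arrays differed too and most did not pass the test. In the fit of all arrays, 2 of the 10 spermatid markers tested fell and 0 rose in trisomic cells. Over all tested genes 4.46% were lower and 5.88% higher. Acrv1 averaged 9.29 on the trisomic and 10.95 on the euploid pre-mid-pachytene arrays (limma adjusted p = 0.00398). Tex36 averaged 9.01 and 10.88 in the same cells of trisomic and euploid males (limma adjusted p = 0.00351). The other 8 did not pass, with Prm2 at 0.36, Odf1 at 0.21, Prm1 at -0.04 and Tnp1 at -0.07. Of the 10 early meiotic prophase markers, 1 rose and 1 fell in the same fit. Msh4, an early recombination gene, was higher by 0.72 in trisomic cells (limma adjusted p = 0.0243), and the other was Rec8 itself. Sycp3 at 0.11 and Msh5 at -0.01 were among the 8 that did not pass. Rec8 was higher in spermatids, at 11.17 on the trisomic and 11.31 on the euploid arrays, than in mid-late-pachytene spermatocytes, at 6.94 and 7.37. The part of cell stage in the Rec8, Dmrtc2 and Stk31 values was not tested. In mid-late-pachytene spermatocytes and spermatids 0 of the 14 tested genes of this list changed between genotypes by limma, and 1 in spermatids and 0 in mid-late-pachytene cells had an unadjusted p under 0.05. Over all tested genes 0.569% were higher and 0.396% lower in mid-late-pachytene spermatocytes, and 0.290% and 0.531% in spermatids.

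By stage, 15 of the 17 rose and 0 fell in pre-mid-pachytene spermatocytes relative to liver in each genotype, where 32.1% of all genes rose in trisomic and 31.4% in euploid males. Relative to pre-mid-pachytene, 8 fell and 3 rose in trisomic mid-late-pachytene spermatocytes, and 8 fell and 2 rose in euploid ones. Over all genes 21.6% fell and 25.4% rose in trisomic males, and 21.2% fell and 29.6% rose in euploid males. Rhox13, a homeobox gene of premeiotic germ cells, fell by 7.73 in trisomic and fell by 9.06 in euploid males, and Tex101, a germ cell surface protein, fell by 5.74 in trisomic and fell by 5.17 in euploid males. Dmrtb1, which controls the switch from mitosis to meiosis in mouse, was higher by 4.03 in euploid mid-late-pachytene spermatocytes. It is given for euploid males because it was among the called genes with the largest change there. Of the 14 list genes tested for a change of the genotype difference at this step, 0 were called, against 0.108% of 7434 genes.

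Of 17 measured genes of retinoic acid metabolism and response, 7 were tested between genotypes in pre-mid-pachytene cells, 4 in mid-late-pachytene cells and 5 in spermatids, with 0 calls by limma in each. At an unadjusted p under 0.05 there was 1 gene in spermatids and 0 in either spermatocyte population. Over all tested genes 5.88% were higher and 4.46% lower in trisomic pre-mid-pachytene cells. The shares were 0.569% and 0.396% in mid-late-pachytene cells, and 0.290% and 0.531% in spermatids. With so few genes tested, 0 calls is near these shares. By stage, 5 of the 17 fell and 2 rose in trisomic mid-late-pachytene relative to pre-mid-pachytene spermatocytes, and 4 fell and 2 rose in euploid ones. The shares of all genes that fell, 21.6% in trisomic and 21.2% in euploid males, were near these counts. Over all genes 25.4% rose in trisomic and 29.6% in euploid males. Rbp4, the retinol carrier, fell by 6.81 in trisomic and fell by 6.78 in euploid mid-late-pachytene relative to pre-mid-pachytene spermatocytes, and Rdh10, which oxidises retinol, fell by 4.95 in trisomic and fell by 4.40 in euploid males. Rdh11, a retinal reductase, rose by 2.74 in trisomic and by 3.37 in euploid males. Cyp26b1 and Cyp26a1, the enzymes that degrade retinoic acid, were in the background range in every germ cell group.

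In liver 1 of 9 tested retinoic acid genes rose in trisomic males, where 5.77% of all tested genes did. Cyp26a1 was 11.91 to 13.96 on the trisomic and 10.23 to 12.13 on the euploid liver arrays, a difference of 1.78 with a limma adjusted p of 0.0124, and the arrays overlapped. Its call was lost without the third trisomic, the second euploid or the third euploid liver array, and with the liver arrays alone. Sycp3, a synaptonemal complex gene, had 4.75 to 5.22 on the trisomic and 5.95 to 6.09 on the euploid liver arrays and fell by 1.03 (adjusted p = 1.3e-04), a call lost with the liver arrays alone.

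**Figure D4:**
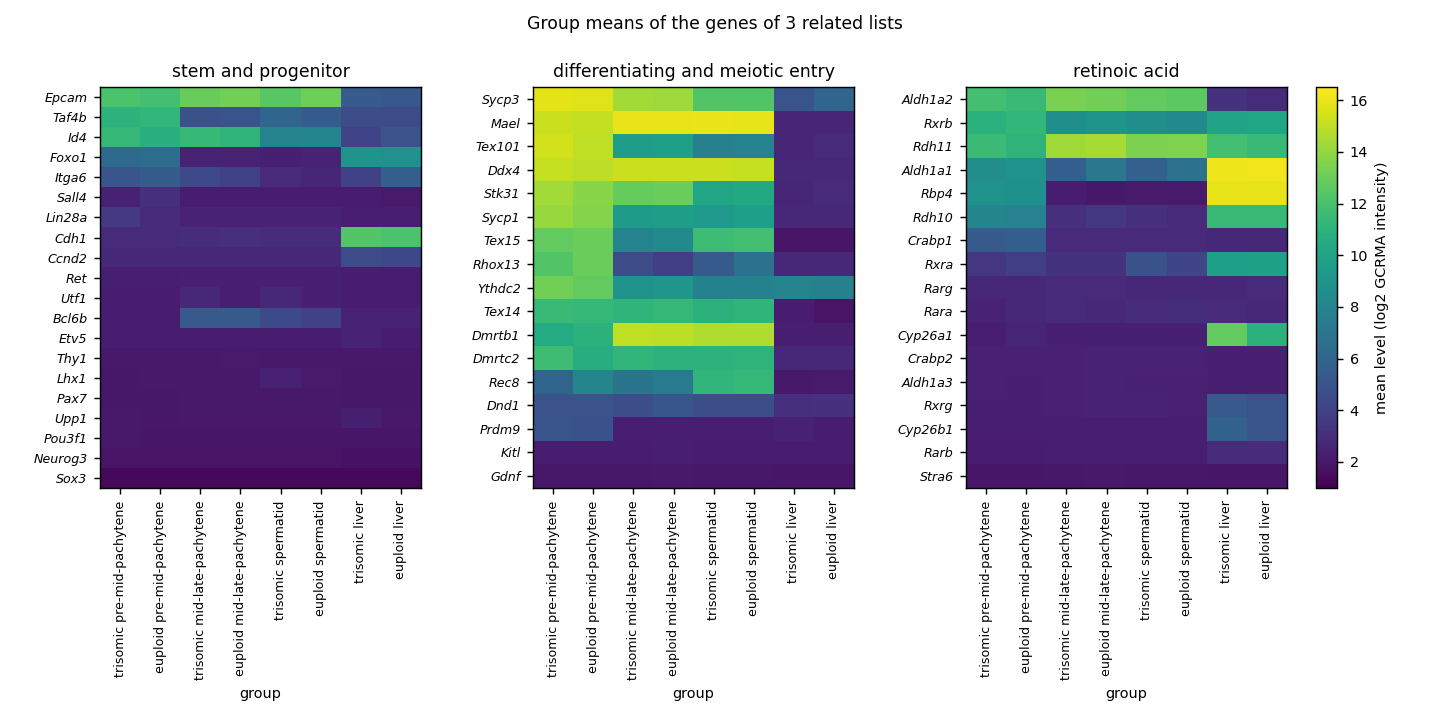
Mean level (log2 GCRMA intensity, colour scale) of each measured gene of the 3 lists in the 8 groups, trisomic column left of euploid column within each cell type. Genes run down each panel by their level in euploid pre-mid-pachytene spermatocytes, and levels should be compared along a row and not between rows. Most rows of the stem and progenitor panel are dark, with 14 of 20 below 3 in pre-mid-pachytene spermatocytes, while 15 of 17 rows of the meiotic entry panel are at 4 or above there.

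The genes whose profile over the 8 group means was nearest to each member's were found by the root mean square difference of centred profiles, among 11112 genes whose means spanned at least 1. Stra8 was nearest to Pnma5, at 0.105, then Map7d2 and Lrr1. Sohlh2 was nearest to Scml2, at 0.290, then Tktl1 and Tex16. Dazl was nearest to Tex101, at 0.789, then Sycp1 and Mov10l1. For Dazl all 3 were also the nearest over the 22 single arrays, for Sohlh2 2 of the 3 and for Stra8 1 of the 3.

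Uchl1, at 0.410, was nearest to Sars2, then Pbx3 and Npdc1, and 1 of these was kept over single arrays. Gfra1, whose profile was set by liver, was nearest to Oit3, Pik3r1 and Ccn2, and Zbtb16 to Igha, Trib3 and Mocs1. Kit was nearest to Dusp9, Trim71 and Smarca1, and Sohlh1 to Apaf1, Zfp647 and Ebf3. The profiles of Kit and Sohlh1 spanned 1.68 and 1.98, so small differences near the background decide which genes are nearest.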

How the data were processed

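The members and gene lists were chosen with earlier results of these data known. Per the submitters' processing notes, the authors computed the deposited log2 values with GCRMA, which corrects background, quantile normalizes and summarises probes; its version, and which arrays were normalized together, are not given in the sources used here. Per the labels' protocols, biotinylated RNA came from 20 to 30 ng of total RNA by 2-cycle labelling. Of 16539 probe sets, 15780 had 1 gene symbol and 759 had none. Array medians ran from 4.15 to 4.75. The number of arrays limits the precision.

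The 8 group means of the 22 arrays were fitted with limma 3.58.1 in R 4.3.3, with python 3.11.15 for promoters and plots. Tests were two-sided. Genotypes were compared over genes that averaged 4 or more within the cell type, interactions over genes that did so in both, and cell types over all named genes. The scripts were tested on simulated data. Alternatives were no filter, a minimum mean of 6, quantile normalization, centring arrays on their medians, a trended robust spread, a fit of only the compared cell types, a replicate block, a background bound of 4, and each array left out.

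Named genes are the members, list genes called between genotypes, at most 4 called genes of each list per comparison with the largest change, and the 3 nearest profiles per member. Ret, Neurog3, Id4, Epcam, Foxo1, Itga6, Cyp26b1 and the marker genes, where outside this rule, were chosen after their values were seen.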

Additional observations from a re-analysis of the deposited data

Results flagged for a closer look

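The genotype difference of Sycp3, trisomic minus euploid, was 0.11 in pre-mid-pachytene spermatocytes and -1.03 in liver. The interaction was 1.14, with a limma adjusted p of 0.00609. Between genotypes Sycp3 was called in liver and not in pre-mid-pachytene spermatocytes, and the liver call was lost with the liver arrays alone. The 3 trisomic liver arrays averaged 5.00 and the 3 euploid ones 6.03, while pre-mid-pachytene spermatocytes averaged 15.84 on the trisomic and 15.73 on the euploid arrays.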

How the results depend on the processing

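Of the 30 called member differences, 810 of 812 values under the alternatives kept their direction and side of the threshold, 2 were no longer past it and 0 reversed. The exceptions were Gfra1 in liver with the liver arrays only and Uchl1 between trisomic spermatids and mid-late-pachytene spermatocytes without 1 array. Most of the 812 values came from leaving out 1 array, which cannot change a difference between groups that do not hold that array. The filter alternatives were not applied to differences between cell types. The count of values kept is therefore a weak measure of robustness. Of 28 uncalled differences, 5 values passed. The cause was not tested.

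Without the filter, members called higher between genotypes in mid-late-pachytene spermatocytes were 1, and the members called for the interaction were 1 between pre-mid-pachytene spermatocytes and liver and 1 between the spermatocyte stages. With only the compared cell types in the fit, members lower in liver were 0, members higher from pre-mid-pachytene to mid-late-pachytene in euploid males were 1 (Gfra1), and list genes were 0 higher and 0 lower in pre-mid-pachytene spermatocytes and 0 higher and 0 lower in liver. Centring made Gfra1 the 1 member higher at that same euploid step, at 0.57, where it moved the median of all genes to 0.57, and list genes lower in liver 2. Quantile normalization gave 1 list gene higher and 2 lower in pre-mid-pachytene spermatocytes and 2 lower in liver. A minimum mean of 6 left 0 list genes lower in liver. With a background bound of 4, members above background in trisomic spermatids were 1.

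With 1 array left out, members lower in pre-mid-pachytene spermatocytes ranged from 0 to 1, members higher in liver from 0 to 1 and members lower in trisomic spermatids against mid-late-pachytene spermatocytes from 0 to 1. List genes ranged from 0 to 3 higher in pre-mid-pachytene spermatocytes, 0 to 1 lower in spermatids, and 0 to 2 higher and 1 to 2 lower in liver.

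The labels link same-numbered arrays of the 2 genotypes by the number alone and do not say whether they shared a batch. Their correlations, after centring each gene on its group mean, were -0.13 to 0.36, highest for the spermatid arrays numbered 2. With the replicate block, 0 of 31 counts moved by over 1.5 times and 0 called member differences lost their call; 1 member stayed lower in liver. The small number of arrays and the array floor limit what can be seen: differences into the background range are bounds set by it.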
